A study of Mus musculus with 16 samples.

Results

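The phospholipid scramblase family of the mouse was followed through its 4 genes Plscr1, Plscr2, Plscr3 and Plscr4. They were read by 8 probe sets, out of 18193 genes and 34945 probe sets that carried a single gene symbol. Plscr1 had 3 probe sets, Plscr2 had 1, and Plscr3 and Plscr4 had 2 each. Members were taken by symbol, but the family was selected on a measured value: the difference of Plscr2 between aged and young haematopoietic stem cells (HSC) drew attention to it. Every Plscr2 value in a comparison that holds an HSC age difference is therefore a description without a test. So is its difference between iPSC and steady-state HSC, defined below, whose size its aged level carries.

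The series asked how ageing changes HSC, whether the change outlasts transplantation and whether it is still seen after reprogramming. Its 16 single-channel Affymetrix arrays fell into 7 groups, all wild type on a C57Bl6 background. Steady-state HSC were sorted from the marrow of male mice aged 3 to 4 months (young, 3 arrays) or 21 to 24 months (aged, 3 arrays). Transplanted HSC were sorted from recipients of young or aged marrow (2 arrays each). The labels give neither the age of these recipients, nor their sex, nor the gate that told donor from host cells. Induced pluripotent stem cells (iPSC) of young or aged haematopoietic origin had 2 arrays each. Embryonic stem cells (ESC) from 2 suppliers had 1 array each, and both kinds of pluripotent cell grew on mouse embryonic fibroblast feeders. Arrays of a group are called biological replicates in the labels, except the ESC. A p-value here reflects the scatter among arrays within their groups, pooled over all groups fitted together. For the pluripotent cells that scatter includes the difference between the 2 ESC suppliers.

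Phospholipid scramblases are single-pass membrane proteins with a palmitoylated, cysteine-rich stretch and a calcium-binding site. They were named for moving phospholipids between the leaflets of a bilayer, which exposes phosphatidylserine on the cell surface. In activated platelets that exposure supports clotting, and in dying cells it is read by phagocytes, although Ano6 and Xkr8 are now known as the main plasma membrane scramblases in these settings. Plscr1, the best studied member, is induced by interferon and also enters the nucleus, Plscr3 is known from mitochondria, where its lipid is cardiolipin, and less is known of Plscr2 and Plscr4.

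In the gene order of the GRCm38.p6 assembly, Plscr1, Plscr2 and Plscr4 are neighbours on chromosome 9, with Mir6386, 1700057G04Rik and the pseudogene Gm15493 between them, while Plscr3 is on chromosome 11. Promoters of 3 of the 4 members were matched in RefSeq's table, and 1 per gene is printed because Plscr1, Plscr3 and Plscr4 all fell in pluripotent cells but start from different sequence. Each runs from 250 bases before the start to 50 after it, on the plus strand, with every CG dinucleotide in capitals.
Plscr1, chr9:92249944-92250243: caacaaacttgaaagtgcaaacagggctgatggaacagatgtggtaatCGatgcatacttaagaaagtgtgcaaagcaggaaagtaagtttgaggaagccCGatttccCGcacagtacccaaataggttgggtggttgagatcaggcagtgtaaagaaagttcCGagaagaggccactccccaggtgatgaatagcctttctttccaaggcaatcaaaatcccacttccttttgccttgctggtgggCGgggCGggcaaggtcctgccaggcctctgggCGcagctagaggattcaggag
Plscr4, chr9:92457128-92457427: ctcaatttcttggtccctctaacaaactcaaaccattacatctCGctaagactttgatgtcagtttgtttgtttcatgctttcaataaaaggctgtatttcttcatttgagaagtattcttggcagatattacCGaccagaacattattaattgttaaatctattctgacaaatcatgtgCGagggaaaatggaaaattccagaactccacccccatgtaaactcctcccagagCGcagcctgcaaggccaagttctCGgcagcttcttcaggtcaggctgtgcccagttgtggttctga
Plscr3, first of 3 entries, chr11:69846394-69846693: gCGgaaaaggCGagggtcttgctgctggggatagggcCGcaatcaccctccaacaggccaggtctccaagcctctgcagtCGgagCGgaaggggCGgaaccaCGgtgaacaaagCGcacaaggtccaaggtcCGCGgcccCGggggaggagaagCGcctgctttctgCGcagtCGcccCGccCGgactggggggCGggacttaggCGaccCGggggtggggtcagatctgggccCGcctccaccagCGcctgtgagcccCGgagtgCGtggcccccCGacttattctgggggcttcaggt
The Plscr1 promoter held 7 CG dinucleotides and the Plscr4 promoter 5, against a median of 7 over 32851 mouse promoters of the same length. The Plscr3 promoter held 24, more than 80.02% of them, and its G and C content was 69%, against 50.67% for Plscr1 and 42% for Plscr4. Both strands were searched for GAAANNGAA, a stretch of the interferon-stimulated response element, TTCNNNGAA, the core bound by STAT factors, and for the short motif of the GATA factors, AGATAA. The first was in none of the 5 member entries (8.56% of all promoters held it), the last in none (11.178%), and TTCNNNGAA was in 1, that of Plscr1 (8.298%). These matches describe letters in a window only.

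The deposited intensities were put on the log2 scale, and all levels below are on it. A level is compared within a probe set and never between probe sets, since probes differ in brightness. In steady-state arrays 8 of 8 HSC marker genes lay above the 25th percentile of all genes of the group, with summed intensities of 16980 to 20280. The sum was 5712 to 7517 in transplanted HSC and 438.5 to 517.5 in iPSC and ESC. Pluripotency markers summed to 24050 to 26860 in iPSC and ESC and to 204.7 to 698.1 in HSC, and fibroblast markers, the feeder type, to 2131 to 2989 and 420.5 to 620.8. Median intensity was 43.5 to 51.9 per array, and no marker is at 0 because the lowest deposited intensity is 4.53.

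**Figure D1:**
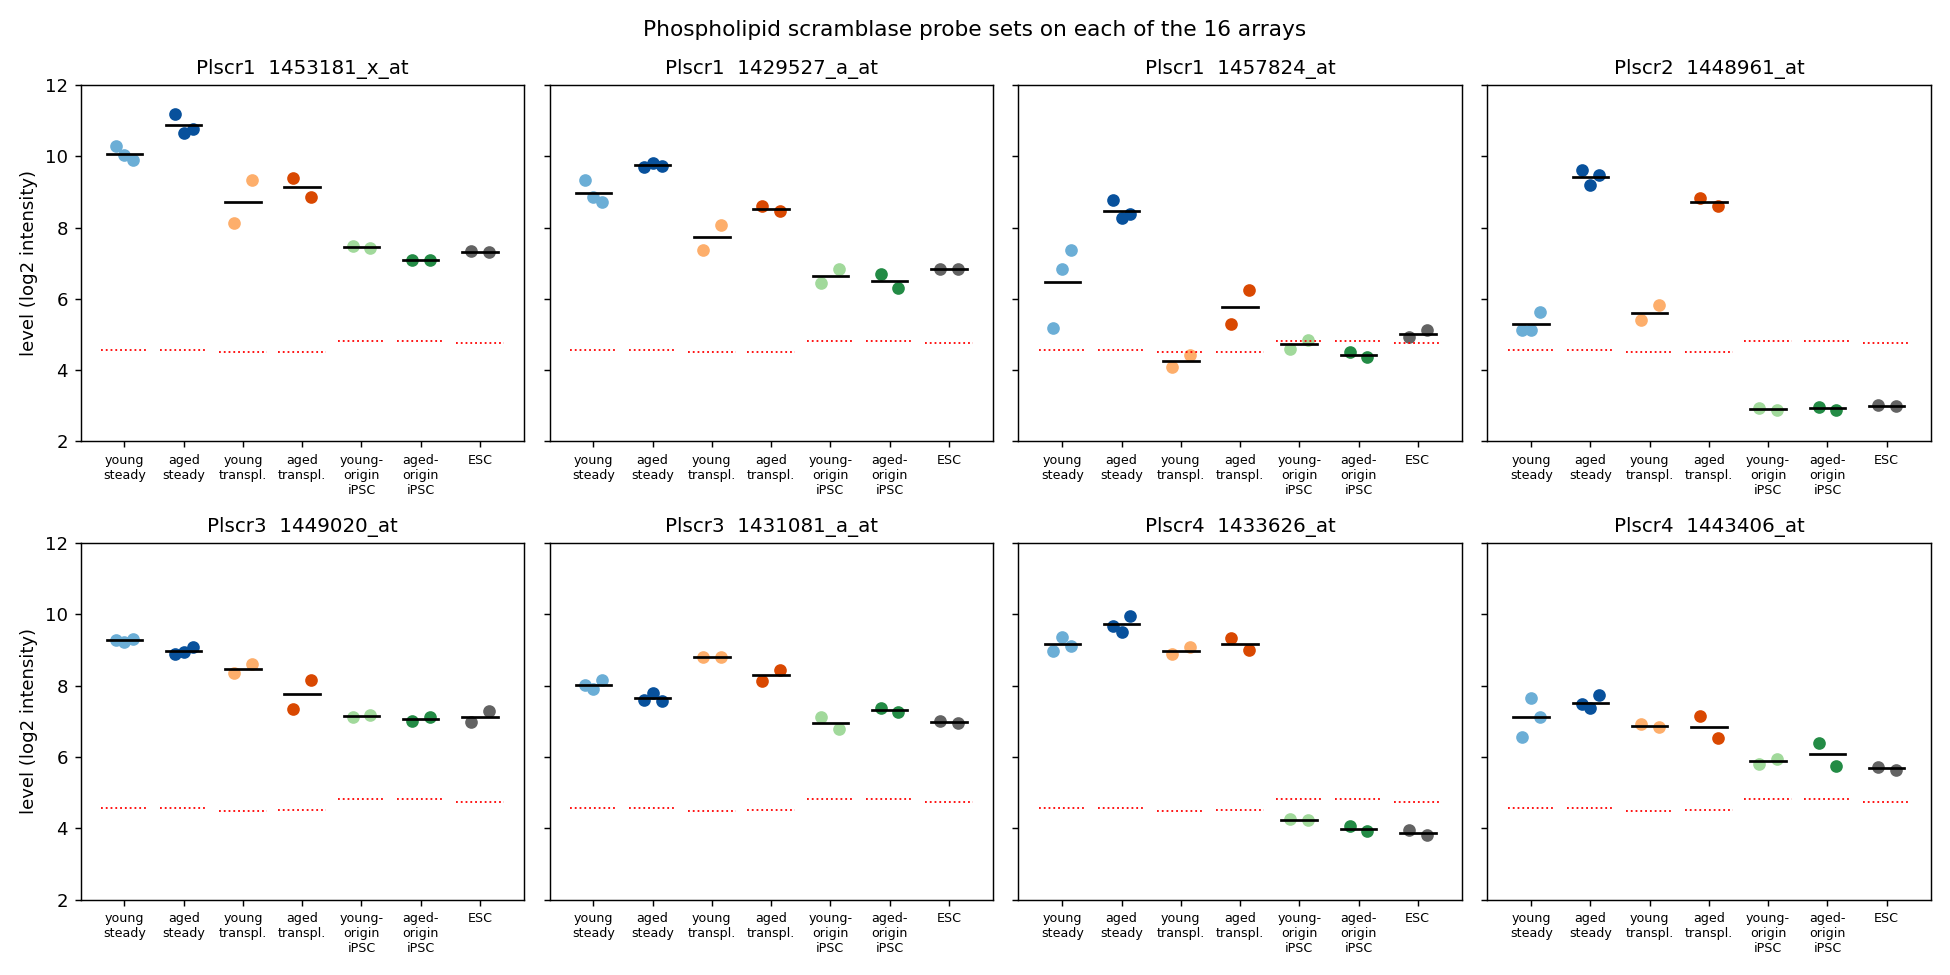
Level (log2 intensity) of the 8 scramblase probe sets on each of the 16 arrays, by group; points are arrays, black lines are group means, and the dotted red line is the 25th percentile of all genes in that group. Plscr2 sits between 8.61 and 9.61 on the 5 aged HSC arrays, between 5.14 and 5.83 on the 5 young ones, and at 3.02 or below in iPSC and ESC.

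Plscr2 stood at 5.14, 5.14 and 5.64 on the young steady-state arrays. On the aged steady-state arrays it stood at 9.61, 9.19 and 9.48. Every aged array was thus far above every young one, and the means of 5.30 ± 0.29 and 9.42 ± 0.22 (SD, n = 3 each) differ by 4.12 log2, or 17.4-fold. In young transplanted HSC Plscr2 was at 5.40 and 5.83, and in aged transplanted HSC at 8.83 and 8.61. Here too both aged arrays lay above both young ones, by 3.11 log2 on average (8.61-fold), which is 1.01 log2 less than in steady state. The 5 young HSC arrays shared a narrow range whichever the setting, and the mean of aged transplanted HSC (8.72) lay 0.70 log2 below that of aged steady-state HSC without overlap. In bulk samples, fewer cells that hold a transcript and less of it per cell cannot be told apart.

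The order of Plscr2 from the highest was aged steady-state, aged transplanted, young transplanted and young steady-state HSC. The 2 young HSC groups overlapped, and the other neighbours in that order did not. The 3 pluripotent groups lay below all of these and are not ordered, since they were all in the dimmest part of the scale. Young HSC placed Plscr2 at the 42.6 and 44.6 percentile of all probe sets (steady-state, then transplanted) and aged HSC at the 88.3 and 85.4 percentile. Its 6 pluripotent arrays ran from 2.88 to 3.02. These values lay at the 1.62 to 2.59 percentile, below the 25th percentile of each group (4.75 to 4.83), where the arrays hardly separate a low level from none.

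The summed megakaryocyte markers differed with age beside Plscr2 in steady-state HSC. All 8 of them lay above the 25th percentile in both groups, and their summed intensity was 3852 to 4527 on young and 7906 to 9019 on aged arrays. Gene by gene, 5 of the 8 lay above 0, 2 were called higher and 0 lower (limma), and the median was 0.20 log2. Of all genes 1.18% were called there. In transplanted HSC the sums were 3312 to 3428 on young and 3486 to 3542 on aged arrays. Gene by gene, 4 of the 8 lay above 0 there and 0 were called, with a median of -0.09 log2 (1.35% of all genes were called). The part of these markers in the age difference of Plscr2 was not tested in either setting.

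Plscr1, the interferon-induced member, stood at 10.29, 10.04 and 9.89 on young steady-state arrays by its brightest probe set, 1453181_x_at, whose suffix says that some probes may match other sequences. On the aged arrays it stood at 11.19, 10.66 and 10.77. All aged arrays were above all young ones, with a difference of 0.80 log2 (1.74-fold, SE 0.30, 95% interval 0.13 to 1.47), but it did not pass over the 13645 genes tested (limma adjusted p = 0.554). In that test 131 genes were higher and 30 lower, 1.18% of the genes tested, and 0 of the 3 tested members were among them; 861 genes had an unadjusted p under 0.05. The call depends on the design: the limma adjusted p was 0.0432 on the 6 steady-state arrays alone, 0.0191 for the mean of the 3 probe sets and 0.0116 with array quality weights. These fits called 415, 135 and 613 genes, against 161.

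The other probe sets of Plscr1 pointed the same way. By 1429527_a_at, which reads alternative transcripts of the gene, it stood at 9.34, 8.86 and 8.72 on young and 9.70, 9.81 and 9.74 on aged arrays. That is 0.78 log2 apart without overlap (SE 0.23, limma adjusted p = 0.345 over all 26209 probe sets fitted). By 1457824_at it stood at 5.19, 6.83 and 7.36 on young and 8.77, 8.26 and 8.38 on aged arrays. The young arrays were spread over more than the aged ones, with replicate 1 lowest, and the difference was 2.01 log2 (SE 0.48, limma adjusted p = 0.159). When every probe set was fitted, 0.759% of them passed, and 0 of the 7 tested member probe sets did.

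Plscr4 stood at 8.97, 9.37 and 9.13 on young steady-state arrays by 1433626_at, its brighter probe set. On aged arrays it was at 9.69, 9.51 and 9.97. The groups did not overlap and were 0.56 log2 apart (1.48-fold, SE 0.19, 95% interval 0.14 to 0.99, limma adjusted p = 0.421), and the difference passed only with array quality weights (adjusted p = 0.0484). By 1443406_at the young arrays were at 6.57, 7.65 and 7.13 and the aged at 7.49, 7.36 and 7.74, which overlap (difference 0.41 log2, SE 0.28).

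Plscr3, the mitochondrial member, went the other way in steady state. By 1449020_at it stood at 9.28, 9.22 and 9.31 on young and at 8.90, 8.94 and 9.10 on aged arrays. All aged arrays were below all young ones, but by only 0.30 log2 (difference -0.30, SE 0.21, 95% interval -0.76 to 0.17, limma adjusted p = 1). Its other probe set, 1431081_a_at, was at 8.03, 7.92 and 8.15 on young and 7.61, 7.79 and 7.58 on aged arrays, a difference of -0.37 log2 (SE 0.17, adjusted p = 0.905), also without overlap. In steady state 7 of the 8 member probe sets did not overlap, 5 with aged above and 2 with aged below, and 6 of 7 without Plscr2. Over all 26209 probe sets 16.4% did not overlap.

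**Figure D2:**
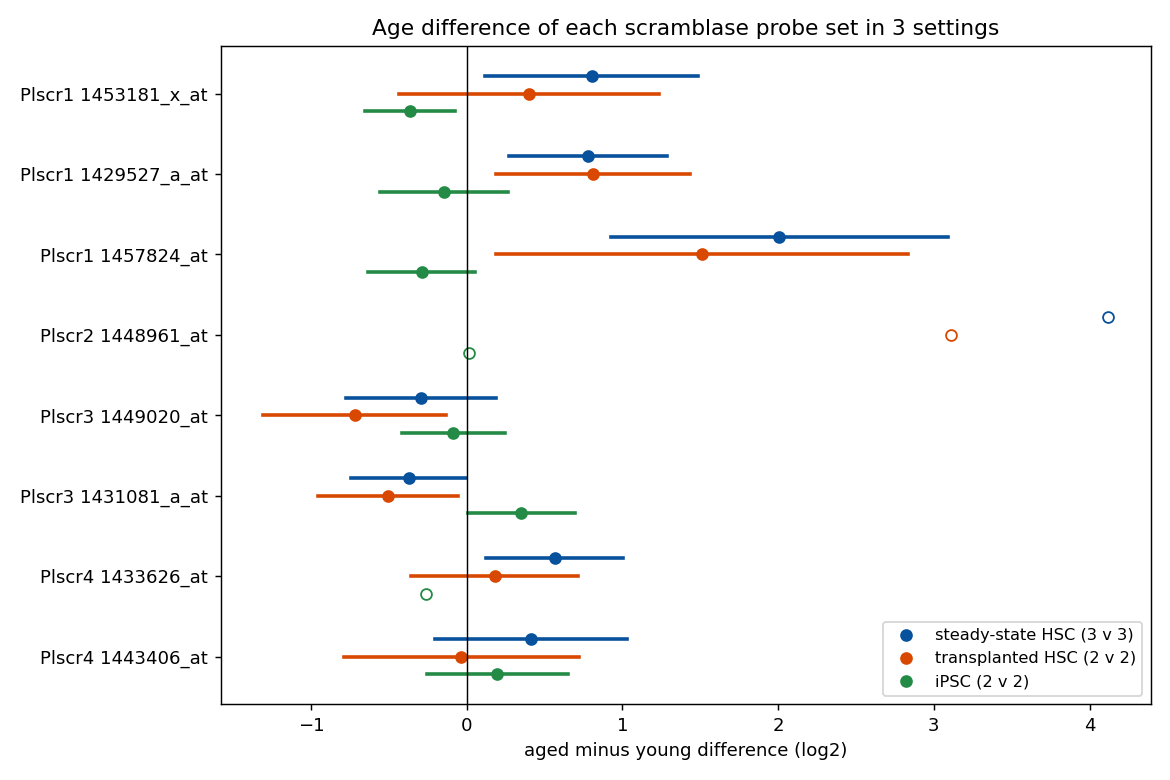
Aged minus young difference (log2) of each scramblase probe set in steady-state HSC (3 against 3 arrays), transplanted HSC (2 against 2) and iPSC (2 against 2); bars are 95% intervals from limma, and open points have none because they chose the family or lay below the filter on dim genes. The Plscr2 points at 4.12 and 3.11 stand far right of the others in HSC, and near 0 in iPSC.

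After transplantation, Plscr1 stood at 8.13 and 9.33 on the young and 9.40 and 8.86 on the aged arrays by 1453181_x_at. These overlap, and the difference of 0.40 log2 did not pass (SE 0.37, 95% interval -0.42 to 1.22, limma adjusted p = 0.683). Young transplanted replicate 1 decided its sign: without that array it was -0.20, and without young transplanted replicate 2 it was 1.00 log2. By 1429527_a_at Plscr1 was at 7.37 and 8.07 on young and 8.61 and 8.45 on aged arrays, 0.81 log2 apart without overlap (SE 0.28, adjusted p = 0.215). By 1457824_at it was at 4.10 and 4.43 against 5.29 and 6.26, 1.51 log2 apart without overlap (SE 0.59, adjusted p = 0.272), with both young arrays below the 25th percentile of their group (4.50).

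Plscr4 was at 8.88 and 9.09 on young and 9.33 and 8.99 on aged transplanted arrays, which overlap (difference 0.18 log2, SE 0.23, 95% interval -0.34 to 0.70, adjusted p = 0.784). Its probe set 1443406_at, at 6.92 and 6.84 against 7.15 and 6.54, gave -0.04 log2. Neither probe set put the 2 groups apart.

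Plscr3 again stood lower with age. It was at 8.36 and 8.60 on young and at 7.35 and 8.17 on aged transplanted arrays, a difference of -0.72 log2 without overlap (1.65-fold lower, SE 0.26, 95% interval -1.29 to -0.15, limma adjusted p = 0.219). Without aged transplanted replicate 1, the lower of its pair, the difference was -0.31, and without replicate 2 it was -1.13. By 1431081_a_at it was at 8.80 and 8.80 against 8.14 and 8.45, a difference of -0.51 (SE 0.20, adjusted p = 0.279).

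In the transplanted setting 75 genes were higher and 109 lower with age, 1.35% of those tested, and 0 of the 3 tested members were among them. Of all probe sets 0.954% passed, and again 0 of the 7 tested member probe sets did. Arrays of 5 of the 8 member probe sets did not overlap, 4 of 7 without Plscr2, beside 31.9% of all probe sets. On the 4 transplanted arrays alone limma called 0 genes, and 636 had an unadjusted p under 0.05.

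The difference between both age effects, transplanted minus steady-state, was tested directly. It was -0.40 log2 for Plscr1 (SE 0.48, limma adjusted p = 0.862), -0.42 for Plscr3 (SE 0.33, adjusted p = 0.764) and -0.39 for Plscr4 (SE 0.30, adjusted p = 0.762), and 0.125% of genes passed. The 95% intervals ran from -1.47 to 0.66, from -1.16 to 0.32 and from -1.05 to 0.28, and each includes both 0 and -1, a 2-fold loss. For Plscr1 the difference was 0.20 without young transplanted replicate 2.

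Members also differed between the settings themselves. Averaged over age, Plscr1 was lower in transplanted than in steady-state HSC (difference -1.54 log2, 2.91-fold lower, SE 0.24, limma adjusted p = 0.000206), and the highest transplanted array (9.40) was below the lowest steady-state array (9.89). Its probe sets 1429527_a_at and 1457824_at gave -1.23 and -2.45, and both passed. Plscr2 differed by -0.20 (SE 0.17, 95% interval -0.56 to 0.17, adjusted p = 0.307), and Plscr4 by -0.37 (SE 0.15, adjusted p = 0.0498), a call that was lost after quantile normalisation (-0.09) and under other settings. It was also lost, at -0.38 to -0.28, without any 1 of 6 arrays: young transplanted 1, aged transplanted 2, aged steady-state 1 or 3, and young steady-state 2 or 3.

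Both probe sets of Plscr3 passed in opposite directions: -1.01 log2 by 1449020_at (SE 0.17, adjusted p = 0.000329) and 0.70 by 1431081_a_at (SE 0.13, adjusted p = 0.000751). Its direction between settings is therefore not settled. Over the 10 HSC arrays the pair correlated at -0.421, against 0.951 for the 2 brighter Plscr1 sets and 0.862 for the Plscr4 pair.

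In this comparison 69.9% of genes passed, and the median gene stood at -0.46 log2 (-0.60 with arrays centred on their medians, -0.40 after quantile normalisation). Relative to that median Plscr1 was at -1.09 and Plscr3 (1449020_at) at -0.55, while Plscr2 was at 0.26 and Plscr4 at 0.09, with the same signs under each of these scalings. Against the median of all probe sets fitted (-0.15) Plscr1 was at -1.39 and Plscr3 at -0.85, but Plscr2 was at -0.04 and Plscr4 at -0.21. Whether Plscr2 and Plscr4 differed more or less than the array as a whole is therefore not settled. HSC markers moved with the setting: 7 of 8 were lower, with a median of -1.71 log2. The setting cannot be told apart here from anything else that differed between these arrays.

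Plscr1, Plscr3 and Plscr4 fell in iPSC against steady-state HSC, averaged over age. By 1433626_at the 6 steady-state arrays of Plscr4 ran from 8.97 to 9.97 and its 4 iPSC arrays from 3.91 to 4.26 (-5.33 log2). Plscr2 was 2.39 log2 lower on average in young-origin iPSC than in young HSC (difference -2.39), and the aged pair differed by -6.49. The iPSC levels of Plscr2 and of Plscr4 by 1433626_at lay below the 25th percentile of their groups (4.81 and 4.83), so the sizes of these differences are uncertain. That Plscr4 probe set passed the filter on dim genes here only through its HSC level, so no p is given for it. By 1443406_at, which stayed above that level at 5.75 to 6.40, Plscr4 differed by -1.35 (SE 0.20, limma adjusted p = 3.72e-05 over all probe sets).

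Plscr1 and Plscr3 remained above that level by 1453181_x_at and 1449020_at. Plscr1 was at 7.48 and 7.43 in young-origin and 7.10 and 7.09 in aged-origin iPSC, 3.20 log2 under steady-state HSC (difference -3.20, SE 0.20, adjusted p = 3.13e-09). Plscr3 was at 7.13 and 7.17 in young-origin and 7.02 and 7.11 in aged-origin iPSC, a difference of -2.02 (SE 0.15, adjusted p = 1.34e-08). By 1431081_a_at Plscr3 differed by -0.70, so its size was not the same between probe sets. By 1457824_at Plscr1 averaged 4.72 and 4.43 in young- and aged-origin iPSC, below the 25th percentile of both. Of all genes 76.4% passed, with a median of 0.17 log2.

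For origin age in iPSC, 0 of the 2 tested members passed. Plscr2 was at 2.94 and 2.89 in young-origin and 2.98 and 2.88 in aged-origin iPSC, which overlap, a difference of 0.01 log2. By 1433626_at Plscr4 was at 4.26 and 4.22 against 4.05 and 3.91, a difference of -0.26, and both were below the filter on dim genes and not tested. By 1443406_at Plscr4 was at 5.81 and 5.94 against 6.40 and 5.75, which overlap (difference 0.20, SE 0.20, limma adjusted p = 0.989). Plscr1 differed by -0.37 (SE 0.12, 95% interval -0.63 to -0.10, limma adjusted p = 0.976) with both aged-origin arrays below both young-origin arrays. By 1429527_a_at its arrays overlapped (difference -0.15, SE 0.18), and by 1457824_at it differed by -0.29 (SE 0.15) without overlap. Plscr3 differed by -0.09 (SE 0.14, adjusted p = 0.98), but by 0.35 (SE 0.15, adjusted p = 0.989) with its probe set 1431081_a_at. A single gene passed in that comparison, 0.00733% of those tested, and 679 had an unadjusted p under 0.05. Arrays of 5 of the 8 member probe sets did not overlap, 1 with aged-origin above and 4 below, beside 32.6% of all probe sets.

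The age effect in iPSC minus that in steady-state HSC was -4.11 log2 for Plscr2, given without a test. It was -1.17 for Plscr1 (SE 0.41, limma adjusted p = 0.614), -0.82 for Plscr4 (SE 0.26, adjusted p = 0.431) and 0.21 for Plscr3 (SE 0.29, adjusted p = 1), where 0.476% of genes passed. For Plscr1 the adjusted p was 0.0356 on the arrays compared alone and 0.034 with the mean of its probe sets. With array quality weights Plscr1 passed as well (-1.23, adjusted p = 0.00432). These 3 fits called 185, 61 and 296 genes, against 65.

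Between iPSC and ESC, 0 of the 2 tested members passed. Plscr1 was at 7.33 and 7.31 in ESC, a difference of -0.05 log2 (iPSC minus ESC, SE 0.10, 95% interval -0.28 to 0.19, adjusted p = 0.881). Plscr3 was at 6.99 and 7.29, a difference of -0.03 (SE 0.12, 95% interval -0.30 to 0.24, adjusted p = 0.936), or 0.12 without the Primogenix ESC array. Plscr2, at 3.02 and 2.99 in ESC, and Plscr4 by 1433626_at, at 3.94 and 3.82, were below the filter. By 1443406_at Plscr4 was at 5.73 and 5.65 in ESC, a difference of 0.29 (SE 0.17, limma adjusted p = 0.524). In that comparison 0.11% of genes passed limma, and 1737 had an unadjusted p under 0.05.

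Over the 16 arrays the 4 members varied together, with correlations of 0.601 to 0.903 between gene pairs, as all were higher in HSC than in pluripotent cells. Within the 10 HSC arrays Plscr1 and Plscr4 correlated at 0.775 and Plscr2 and Plscr4 at 0.693, but Plscr2 and Plscr3 at -0.324. These are descriptions: the arrays share groups, and the age groups set much of the HSC values.

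Genes with a pattern most like that of Plscr2 were sought over the 16 arrays among 13641 genes. They were Gm10419 (r = 0.965), Selp, which encodes the adhesion receptor P-selectin (0.961), the fatty acid receptor gene Ffar2 (0.961), Clca3a1 (0.948) and the phosphatase gene Dusp4 (0.947). Only 3 genes correlated with Plscr2 above 0.95, against 349 with Plscr1, 138 with Plscr3 and 651 with Plscr4. Ffar2 was 1.75 log2 higher with age in steady-state and 2.41 in transplanted HSC, whereas Selp was 3.34 and 0.78 higher. Both were chosen by correlation with Plscr2 over these arrays, so that they rise with age is no separate result.

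The nearest patterns to the other members were all those of genes higher in steady-state HSC than in iPSC. Choosing them by correlation with members that fell in iPSC fixed this in advance. For Plscr4 these were Mmrn1, encoding the platelet and endothelial protein multimerin 1 (r = 0.9985), the chromatin remodelling ATPase gene Smarca2 (0.996) and the cation channel gene Trpc6 (0.996). For Plscr1 they were 1810073O08Rik (0.986), Shtn1 (0.984) and the autophagy gene Rb1cc1 (0.983). For Plscr3 they were the phosphatase gene Ptpn6 (0.982), Nap1l3 (0.976) and Tes (0.976).

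**Figure D3:**
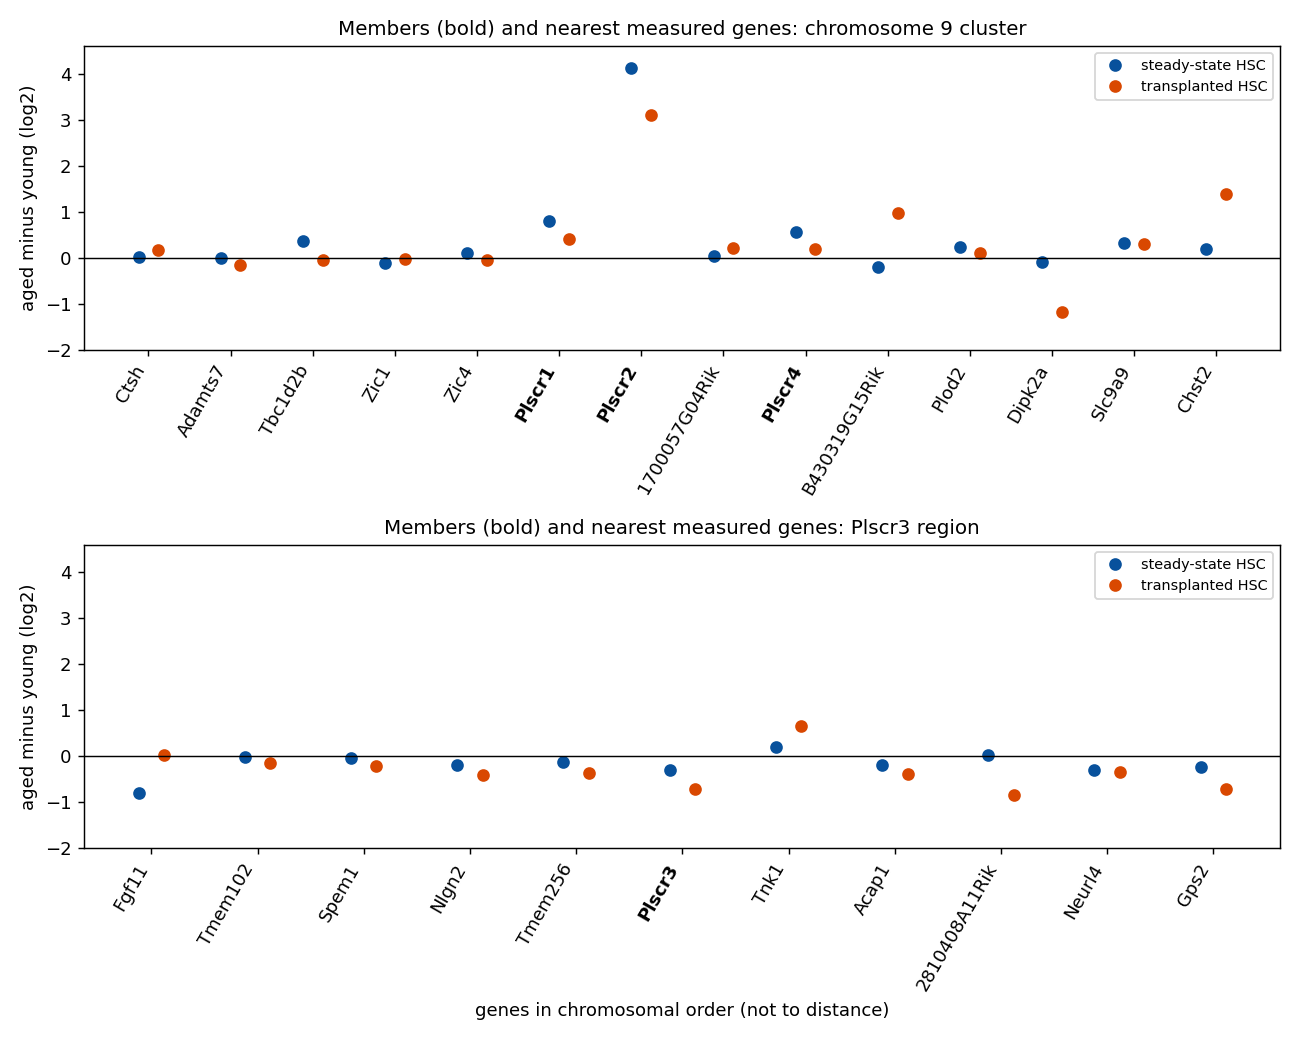
Aged minus young difference (log2) of the scramblase genes (bold) and the nearest measured genes on each side, in chromosomal order and not to distance, for steady-state (blue) and transplanted HSC (orange). In the chromosome 9 cluster Plscr2 stands at 4.12 and 3.11, and the 11 measured genes outside the family between -1.18 and 1.38. The members Plscr1 and Plscr4 stand at 0.80 and 0.56 in steady-state and at 0.40 and 0.18 in transplanted HSC.

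Whether the age difference of Plscr2 extended to genes around it was looked at in the 11 nearest measured genes of the chromosome 9 cluster. In steady-state HSC the differences of these 11 ran from -0.20 to 0.36 log2, with 7 above 0. Of the 7 tested 0 were called, beside 1.18% of all genes. The gene between Plscr2 and Plscr4, 1700057G04Rik, differed by 0.03 and lay below the filter. In transplanted HSC 2 of the 7 tested were called, in opposite directions, beside 1.35% of all genes. Chst2, a sulfotransferase gene, rose by 1.38 log2 (SE 0.23, limma adjusted p = 0.0286) and Dipk2a fell by 1.18 (SE 0.23, adjusted p = 0.041). Both lie beyond Plscr4 and not next to Plscr2. Around Plscr3, 0 of 10 tested neighbours were called in either setting, with medians of -0.16 and -0.35.

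The scramblases act beside other proteins that set lipid asymmetry, given here from lists drawn up by function. Their counts stand beside 1.18% of all genes called with age in steady-state HSC, and 1 or 2 calls on a list of this size show nothing particular to it. Flippases, the P4-type ATPases that pump phosphatidylserine inward and their Tmem30 subunits, had 0 of 13 tested genes called with age in steady-state HSC (median 0.17 log2, against -0.02 over all genes). Atp10a, with 0.75 (SE 0.23, limma adjusted p = 0.303), and Tmem30b, with 1.10 (SE 0.39, adjusted p = 0.475), had the smallest p. Other scramblases and their partners had 1 of 12 called and a median of -0.05: Vmp1, a scramblase of the endoplasmic reticulum that acts in autophagy, rose by 1.06 (SE 0.19, adjusted p = 0.0249). The plasma membrane scramblase genes Ano6 and Xkr8 were at -0.12 (SE 0.17) and 0.23 (SE 0.22), both with adjusted p = 1.

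ABC lipid transporters had 2 of 10 called, both higher, and a median of 0.04. Abca4, known as a retinal lipid transporter, rose by 1.65 log2 (SE 0.20, adjusted p = 0.0029) and Abcb1b, a multidrug transporter, by 1.14 (SE 0.20, adjusted p = 0.022). Of the proteins that recognise exposed phosphatidylserine, 1 of 14 was called, and the median was 0.10: Pros1, the anticoagulant protein S that bridges phosphatidylserine to TAM receptors, rose by 1.26 (SE 0.21, adjusted p = 0.0187). In transplanted HSC 0 genes of these 4 lists were called with age (limma), at medians of -0.05 to 0.08.

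**Figure D4:**
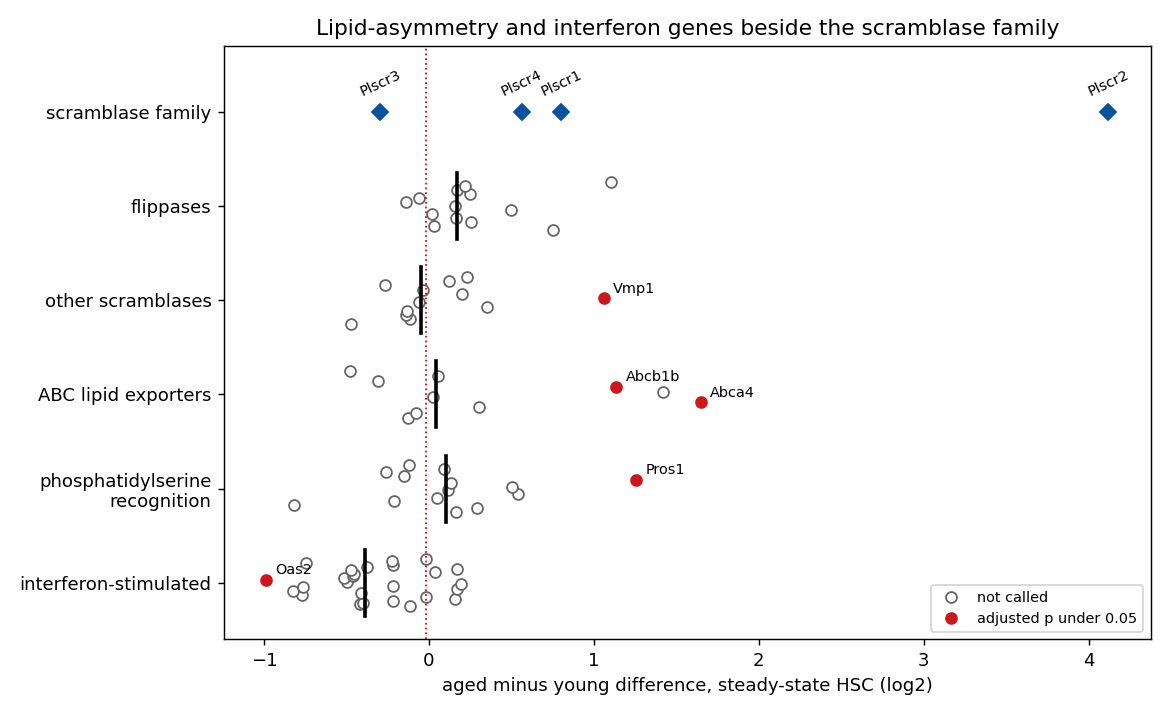
Aged minus young difference (log2) in steady-state HSC for the 4 scramblases and for the tested genes of 5 lists; each point is a gene, black bars are list medians, the dotted line is the median of all genes (-0.02), and filled red points passed at an adjusted p under 0.05. Called genes are Vmp1, Abcb1b, Abca4 and Pros1 on the higher side and Oas2 on the lower, and Plscr2 lies at 4.12.

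Interferon-stimulated genes were set beside Plscr1, which interferon induces. With age in steady-state HSC, 5 of 26 lay above 0 and the median was -0.39 log2, while Plscr1 stood at 0.80. One was called (1.18% of all genes were), Oas2, an antiviral synthetase gene, which fell by 0.99 (SE 0.15, limma adjusted p = 0.00951). Irf7 and Ifit1 were at -0.76 (SE 0.25, adjusted p = 0.381) and -0.77 (SE 0.26, adjusted p = 0.406). In transplanted HSC the median was -0.08, 12 of 26 lay above 0 and 0 of 26 were called, beside 1.35% of all genes. There Irf7 was at -0.37 (SE 0.31, adjusted p = 0.639), but Ifit1 was at 0.90 (SE 0.31, adjusted p = 0.209). Counts of calls on all 5 lists were the same in steady-state HSC after quantile normalisation and with arrays centred on their medians.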

How the data were processed

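Per the labels, RNA came from a QIAGEN microRNeasy extraction and was hybridised as biotinylated cRNA. The values are the intensities that the authors deposited for 45101 probe sets on 16 arrays, on a linear scale. Their summarisation and normalisation are not given in the sources used here. They were put on the log2 scale with no pseudocount and no further scaling. Probe sets were named through a platform annotation table, and the 64 control probe sets were left out. For gene tests, a gene was read by its brightest probe set (by mean level over the 16 arrays); member probe sets were also each fitted.

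Comparisons used limma 3.58.1 (lmFit, eBayes) in R 4.3.3, on the 10 HSC arrays, the 6 iPSC and ESC arrays, or all 16 for contrasts of HSC with iPSC. Genes below the 25th percentile of mean level in a fit were left out, and p-values were adjusted by Benjamini-Hochberg over all 13645 genes tested, or 26209 probe sets in HSC. Every adjusted p in the text is from limma. The fits were tested on simulated data. Figures used matplotlib 3.10.9.

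Members, lists, tests and alternatives were chosen with earlier results of these data known. Named beside the members were the 5 (Plscr2) or 3 genes of highest Pearson r, the 5 nearest measured genes on each side, and from each list up to 4 called genes or, with none called, the 2 with the smallest p. Ano6, Xkr8, Irf7, Ifit1 and Bst2 were named outside this rule, after their values were seen. Replicate numbers were not taken to pair the samples. Same-numbered arrays of the age groups correlated in their deviations at -0.197 to 0.194, but with 2 or 3 arrays per group this cannot settle whether they are paired. The table holds no detection calls, and the 2 or 3 arrays per group limit the precision. Alternatives were other scalings, filters, pseudocounts, probe set rules, array sets, array weights, a trended prior, the replicate number as a block, and each array left out.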

Additional observations from a re-analysis of the deposited data

Results flagged for a closer look

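For 2 probe sets the aged and young arrays were apart in opposite directions in transplanted HSC and in iPSC, and the difference between both age effects was not tested. Plscr1 by 1457824_at was higher on both aged transplanted arrays (1.51 log2) and lower on both aged-origin iPSC arrays (-0.29), so the age difference in iPSC minus that in transplanted HSC was -1.80 log2. Its iPSC arrays, at 4.37 to 4.86, and its young transplanted arrays, at 4.10 and 4.43, lay near or below the 25th percentile of their groups. Plscr3 by 1431081_a_at was lower on both aged transplanted arrays (-0.51) and higher on both aged-origin iPSC arrays (0.35), a difference of 0.86 log2, while its probe set 1449020_at was lower with age in both. Each side rests on 2 against 2 arrays, and 31.9% of all probe sets were apart in transplanted HSC and 32.6% in iPSC. Of 24166 probe sets past the filter in both, 4.79% were apart in opposite directions; 6 member probe sets passed it, and both of these were among them.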

How the results depend on the processing

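Of 755 alternative values for the 4 genes in 8 comparisons, 708 counted as unchanged. For a tested result this meant keeping its direction and side of the threshold. For a result without a test it meant moving by less than the SD among arrays, pooled over the groups compared. The age calls of Plscr1 in steady-state HSC passed at 1.196 (mean of probe sets), 0.80 (only the arrays compared) and 0.87 log2 (array weights), and its iPSC minus HSC age difference at -1.46, -1.17 and -1.23. Array weights also gave Plscr4 0.56 in steady state and -0.82 for that difference, both called. A pseudocount of 64, far above dim levels, moved Plscr2 to 2.86 and 2.10 (age, steady-state and transplanted), -0.75 and -2.85 (differences of age effects), -0.0090 (iPSC minus ESC) and -0.25 (transplanted minus steady-state, adjusted p = 0.0473), and Plscr4 to -0.055 (iPSC age) and 0.048 (iPSC minus ESC). Quantile normalisation moved Plscr2 to 3.38 (transplanted age), -0.53 and -3.91 (differences), and turned iPSC minus ESC to 0.0016 for Plscr1 and 0.025 for Plscr3.

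The Plscr4 call between settings was lost after quantile normalisation (-0.086), with a 50th percentile filter or a trended prior (-0.37 each), with array weights (-0.39), by probe set (-0.37 and -0.46) and without any 1 of 6 arrays (-0.38 to -0.28; -0.45 to -0.28 over all left-out arrays). Plscr3 between settings was -0.15 by the mean of probe sets (adjusted p = 0.308) and 0.70 by 1431081_a_at. That mean and that set also turned Plscr3 in iPSC age (0.13, 0.35) and iPSC minus ESC (0.063, 0.16; -0.18 to 0.12 over left-out arrays). By 1443406_at Plscr4 was -0.036 with transplanted age and 0.20 with iPSC age (-0.031 by the mean). For Plscr1, 1429527_a_at gave 0.033 for the HSC difference of age effects, and left-out arrays gave -1.004 to 0.20 for it and -0.20 to 1.00 for transplanted age. The causes were not tested.

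With the replicate number as a block, Plscr4 between settings was -0.31 (adjusted p = 0.168); no other member's call changed, and genes called with age went from 161 to 121 in steady-state and from 184 to 27 in transplanted HSC. Crossing the numbers of the transplanted arrays, an alternative added after seeing the data, gave 31. Arrays number 2 or 3 per group, which limits precision, and Plscr2, and Plscr4 by 1433626_at, are too dim in pluripotent cells to be ordered.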

Other observations

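Against steady-state HSC, iPSC had lower levels of most interferon-stimulated genes: 21 of 26 fell and 1 rose by limma (median -1.80 log2, against 0.17 over all genes), beside the fall of Plscr1 by 3.20. Of these 26 genes, 23 also passed the filter on dim genes among iPSC and ESC arrays, so the count includes genes dim in iPSC. Ifit1, encoding an RNA-binding antiviral protein, did not pass it there. Its fall of 3.66 log2 is therefore of uncertain size and is given without a test. Bst2, encoding the membrane protein tetherin, rose by 0.49 (SE 0.14, limma adjusted p = 0.00547). Of the ABC lipid transporters 8 of 10 fell and none rose (median -1.25), among them Abca1, the cholesterol and phospholipid exporter, by 3.30 (SE 0.18, adjusted p = 5.32e-10). Flippases were split, with 5 of 14 higher and 7 lower (median -0.43); Atp8a1 fell by 4.36 (SE 0.18, adjusted p = 2.26e-11). Other scramblases had 4 of 12 higher and 7 lower (median -0.48). In this comparison 76.4% of all genes passed.

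Between settings, averaged over age, 9 of 13 flippases were lower and 1 higher in transplanted HSC (median -1.07, against -0.46 over all genes), with Atp11a down by 2.61 (SE 0.18, limma adjusted p = 8.65e-07). Of 26 interferon-stimulated genes 18 were lower and 4 higher (median -0.89). Gbp2 fell by 2.47 (SE 0.17, adjusted p = 8.21e-07) and Ifitm3 rose by 1.88 (SE 0.13, adjusted p = 9.83e-07). Among other scramblases Nptn, encoding a partner of Xkr8, fell by 2.51 (SE 0.18, adjusted p = 9.3e-07), and Bsg, encoding another such partner, rose by 1.64 (SE 0.18, adjusted p = 1.8e-05). Anxa5, whose protein binds exposed phosphatidylserine, fell by 1.59 (SE 0.16, adjusted p = 9.63e-06). Of all genes 69.9% passed here, and the setting cannot be told apart from anything else that differed between these arrays.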
